A study of Mus musculus with 8 samples.

Results

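A lactating mammary gland builds milk fat partly from fatty acids that arrive in the blood, and 10 genes of that import route are described here in glands of wild-type (WT) mice and of mice without Th-POK (KO). They were chosen by role, as genes of lipoprotein lipolysis, uptake, binding and activation: Lpl, Cd36, Vldlr, Fabp3, Fabp5, Slc27a1, Slc27a4, Acsl1, Acsl3 and Acsl4. Of the 10, 9 were measured, by 15 probes, among 18749 genes with a probe. No probe matched Fabp5 through the gene table, and it was not analysed here. All 9 measured genes were well above background on all 8 arrays and were among the 14137 genes tested.

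RNA came from No. 4 mammary glands of female mice at lactation day 1, 4 WT and 4 KO, as biological replicates numbered 1 to 4 in each genotype, with 1 Agilent array per sample. Both groups were of the C57/Bl6 strain, age matched and fed standard chow, and the KO animals lacked Th-POK (gene Zbtb7b) in the whole body rather than in the epithelium alone. Values are log2 signals after quantile normalization between arrays, a difference is KO minus WT on that scale, and a gene is called where the limma p, adjusted over all genes tested by Benjamini-Hochberg, is under 0.05. By that rule 1266 genes were called lower in KO, 8.96% of those tested, and 1065 higher, 7.53%.

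Zbtb7b itself had a mean of 10.17 in WT and 1.59 in KO. It was not well above background on any KO array and was at least 81.5-fold lower there (limma adjusted p = 5.71e-09). The WT arrays all lay on 1 slide and the KO arrays on another, so slide and genotype cannot be told apart in any value below. Arrays were alike in quality, with 66.8% to 75.3% of probes well above background and no saturated spot. Signal from a whole gland is a sum over cell types, so fewer cells of a type and less RNA per cell cannot be told apart.

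In this route, lipoprotein lipase (Lpl) frees fatty acids from the triglyceride of chylomicrons and very low density lipoprotein at the capillary wall, and the very low density lipoprotein receptor (Vldlr) binds triglyceride-rich particles. CD36 takes up long-chain fatty acids at the cell surface, and the transport proteins encoded by Slc27a1 and Slc27a4 (FATP1 and FATP4) both import fatty acids and activate very long chains. Fatty acid binding proteins (Fabp3, Fabp5) carry the fatty acids in the cytosol, and long-chain acyl-CoA synthetases (Acsl1, Acsl3, Acsl4) join them to coenzyme A, the form in which they enter triglyceride. In the mammary gland, Lpl, Cd36 and Fabp3 are known for high expression during lactation.

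The promoters of the 3 genes for which any probe was called are shown first, because SREBP, whose activity the study examined in these glands, acts through short sterol elements near gene starts. RefSeq promoters (build GRCm38.p6) were matched for 8 of the members, with 12 promoters in all, and the 250 bases before each start were searched on both strands. Capitals mark the motif matches, and an Acsl1 match to CACCCCAC on the minus strand reads as its reverse complement.
Vldlr, chr19:27216234-27216483, strand +: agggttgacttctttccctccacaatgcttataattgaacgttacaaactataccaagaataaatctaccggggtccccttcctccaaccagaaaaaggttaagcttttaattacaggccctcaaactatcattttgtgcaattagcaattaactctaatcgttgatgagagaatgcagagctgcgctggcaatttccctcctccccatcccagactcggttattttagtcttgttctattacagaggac
Slc27a4, chr2:29802384-29802633, strand +: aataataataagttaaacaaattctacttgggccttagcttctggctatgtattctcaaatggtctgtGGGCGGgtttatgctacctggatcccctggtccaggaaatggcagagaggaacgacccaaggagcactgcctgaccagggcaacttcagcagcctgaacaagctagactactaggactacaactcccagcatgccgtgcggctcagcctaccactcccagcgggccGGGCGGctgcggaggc
Acsl1, upstream start, chr8:46470787-46471036, strand +: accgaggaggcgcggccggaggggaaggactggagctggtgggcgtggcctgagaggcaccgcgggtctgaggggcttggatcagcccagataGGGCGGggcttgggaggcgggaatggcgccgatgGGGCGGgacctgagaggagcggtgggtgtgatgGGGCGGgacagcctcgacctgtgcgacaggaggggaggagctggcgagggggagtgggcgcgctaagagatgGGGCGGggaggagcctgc
Acsl1, downstream start, chr8:46490716-46490965, strand +: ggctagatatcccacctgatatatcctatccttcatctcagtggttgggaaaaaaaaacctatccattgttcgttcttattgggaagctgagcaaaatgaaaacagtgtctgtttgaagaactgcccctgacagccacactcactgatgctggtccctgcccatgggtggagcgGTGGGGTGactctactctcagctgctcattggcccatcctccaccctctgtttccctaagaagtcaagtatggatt

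The sterol element core CACCCCAC was present in 1 of the 12 promoters, the downstream Acsl1 start, 76 bases before it, against 2.58% of all 32851 promoters of that length. The upstream Acsl1 start held 4 copies of the GC box GGGCGG and the Slc27a4 promoter held 2. The Vldlr promoter shown held no match to any motif searched, and the promoter at another Vldlr start held 1 GC box. GC boxes were present in 8 of the 12 promoters and in 32.7% of all. The E-box CACGTG was present in 1 of the 12, at Slc27a1, against 6.02% of all, and the nuclear receptor core motif AGGTCA was present in 1, at Cd36, against 14% of all. The motifs were counted separately, and matches of different motifs may overlap. A match is a run of letters and not a measured binding site.

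Of the 9 measured genes of the import route, 1 was called. Vldlr was called lower in KO, where 8.96% of all genes were, and no member was called higher, where 7.53% of all genes were. By brightest probe none differed 2-fold, where 4.37% of all genes were called and differed at least 2-fold. A dimmer Slc27a4 probe was 2.11-fold lower in KO. On average 5 members were lower in KO and 4 were higher, and their median difference was −0.07 against −0.02 over all genes tested. Without adjustment, 3 members passed at p under 0.05 in limma, all lower in KO, which were Vldlr, Slc27a4 and Acsl1. Over all genes tested, 36.3% passed without adjustment and 19.6% did so in the lower direction. By the methods' t-test 2 passed without adjustment, Vldlr and Slc27a4, and 0 after it.

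**Figure D1:**
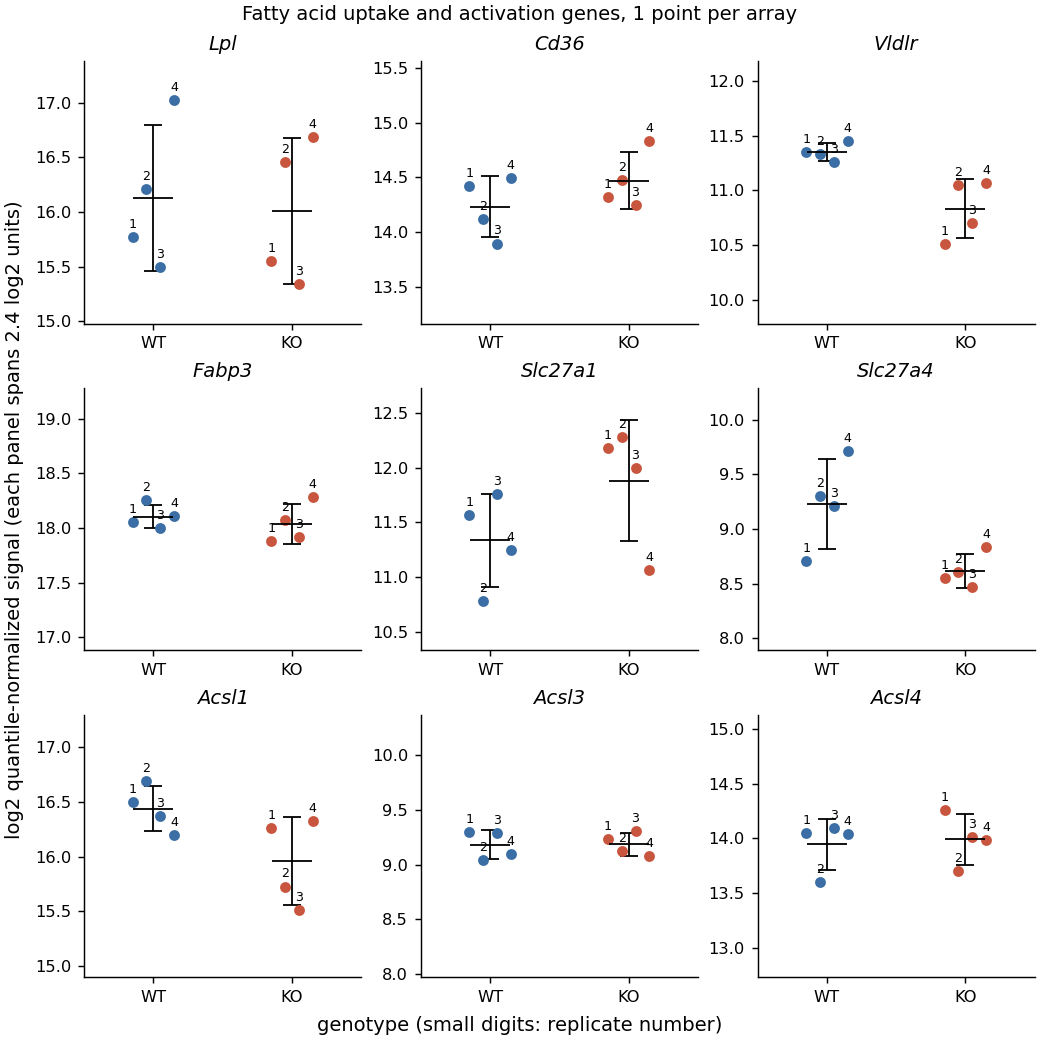
Log2 quantile-normalized signal of the 9 measured genes on each array, WT in blue and KO in red, with digits giving the replicate number and bars the mean ± SD (n = 4 per genotype). Each panel spans the same number of log2 units around its own centre, and only the Vldlr panel shows KO arrays all below the WT arrays.

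Lpl, which makes the fatty acids of circulating triglyceride available to the gland, varied far more between animals than between genotypes. Its WT signals were 15.77, 16.21, 15.49 and 17.02 on arrays 1 to 4, and its KO signals were 15.55, 16.46, 15.34 and 16.69. In both genotypes arrays 2 and 4 were the high ones and array 3 the lowest, and the genotypes overlapped over nearly their whole range. The difference was −0.11 with a standard error (SE) of 0.40 (95% interval −1.03 to 0.80, limma adjusted p = 0.857). It changed sign without WT array 4 (0.18), KO array 1 (0.04) or KO array 3 (0.11). A second Lpl probe gave −0.25 (SE 0.37, limma adjusted p = 0.657). On the linear scale the interval runs from 0.489 to 1.75 times the WT signal, so an absence of change was not shown for this gene. That interval does not use the replicate numbers as pairs. Between same-numbered arrays the KO minus WT differences were −0.22, 0.25, −0.15 and −0.33.

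Cd36, the surface receptor for long-chain fatty acids, was slightly higher on average in KO and was not called. The WT signals were 14.42, 14.12, 13.89 and 14.49, and the KO signals 14.32, 14.47, 14.25 and 14.83. The KO array was the higher of the same-numbered pair in 3 of 4 pairs, and the genotypes overlapped. The difference was 0.24 (SE 0.18, 95% interval −0.17 to 0.64, limma adjusted p = 0.364).

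Vldlr was the member called by its brightest probe. WT arrays gave 11.35, 11.33, 11.26 and 11.45, a spread of only 0.08 (SD), and KO arrays gave 10.51, 11.05, 10.704 and 11.06. Every KO array was below every WT array, as was the case for 12.9% of all genes tested, while for 11.1% every KO array was above every WT array. The difference was −0.52 (SE 0.14, 95% interval −0.84 to −0.19, limma adjusted p = 0.0423), or 1.43-fold lower in KO. A second, dimmer Vldlr probe gave 9.33, 9.21, 9.24 and 9.20 in WT and 8.25, 8.88, 8.47 and 8.76 in KO. On that probe the difference was −0.65 (SE 0.15, adjusted p = 0.0256 in limma over all probes), a call lost without WT array 2 or 3 or KO array 1 or 3 (up to 0.0777). The call on the brighter probe is close to the threshold. It was lost without any single WT array and without KO array 1, 2 or 3, with differences of −0.59 to −0.41 over all 8 omissions and a limma adjusted p of up to 0.113, and kept without KO array 4 (0.0362).

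Fabp3, the fatty acid binding protein of heart and lactating mammary epithelium, had almost equal signals in the 2 genotypes. The WT signals were 18.05, 18.25, 18.00 and 18.11 and the KO signals 17.88, 18.07, 17.91 and 18.28. KO arrays lay both below and above all the WT arrays. The difference was −0.07 (SE 0.12, 95% interval −0.34 to 0.21, limma adjusted p = 0.720). Over the alternative settings it ranged from −0.20 to −0.05. Its mean signal stood at percentile 99.96 of all probes, where quantile normalization assigns values from few ranks.

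The 2 transport proteins measured had mean differences of opposite sign. Slc27a1 gave 11.56, 10.78, 11.75 and 11.24 in WT and 12.18, 12.28, 11.99 and 11.07 in KO. KO arrays 1, 2 and 3 were above all the WT arrays, whereas KO array 4 was below 3 of them. Its difference of 0.55 was not called (SE 0.30, 95% interval −0.15 to 1.24, limma adjusted p = 0.227), and without KO array 4 it was 0.82 with a limma adjusted p of 0.0506.

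Slc27a4 gave 8.71, 9.30, 9.21 and 9.71 in WT and 8.55, 8.61, 8.47 and 8.83 in KO. KO array 4 lay above WT array 1, the single point of overlap, and KO was the lower of each same-numbered pair in 4 of 4. The difference was −0.62 (SE 0.20, 95% interval −1.07 to −0.16) and was not called (limma adjusted p = 0.0658). With the replicate number as a block it was called (limma adjusted p = 0.0403), as it was without WT array 1 (−0.79, limma adjusted p = 0.0179). A dimmer Slc27a4 probe gave 6.07, 6.78, 6.57 and 7.04 in WT and 5.86, 5.65, 5.56 and 5.10 in KO. All its KO values were below the WT values, as was the case for 12.9% of genes by their brightest probe. Its difference of −1.08 was called (SE 0.23, adjusted p = 0.0232 in limma over all probes), a call lost without WT array 2 or 3 or KO array 2 or 3, with a limma adjusted p of up to 0.0658. With normexp on the median signals, a background correction that adds an offset of 50, it was −0.52 and the brighter probe −0.57.

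Set against each other on the same arrays, Slc27a1 minus Slc27a4 was 1.16 higher in KO and higher in 4 of 4 same-numbered pairs. An exact two-sided permutation test over the 70 relabelings gave p = 0.0857, or 0.171 after Benjamini-Hochberg adjustment over the 4 pairs of related genes compared. The smallest p that this design can give is 0.0286, and a single pair at that p would stand at 0.114 after the adjustment, so this test could not have passed for 1 pair alone. It neither shows nor bears against a difference between the 2 transport genes.

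Acsl1, the synthetase best known from fat, liver and heart, had a lower mean in KO on each of its 3 probes, by an amount that depended on the probe. Its brightest probe gave 16.50, 16.69, 16.37 and 16.19 in WT and 16.26, 15.73, 15.51 and 16.32 in KO. KO arrays 2 and 3 were below all WT arrays, and KO arrays 1 and 4 were within the WT range. The difference of −0.48 was not called (SE 0.21, 95% interval −0.95 to −0.01, limma adjusted p = 0.129).

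Both dimmer Acsl1 probes were called. Probe A_51_P463452 gave 13.80, 14.05, 13.57 and 13.41 in WT and 13.19, 12.65, 12.12 and 13.06 in KO, a difference of −0.95 (SE 0.24, adjusted p = 0.0363 in limma over all probes). Probe A_52_P597618 gave 13.64, 13.92, 13.43 and 13.34 in WT and 13.27, 12.61, 12.23 and 12.98 in KO, a difference of −0.81 (SE 0.23, adjusted p = 0.0469 in limma over all probes). On these 2 probes every KO array was below every WT array, and on all 3 Acsl1 probes KO arrays 2 and 3 were the lowest. By brightest probe, 12.9% of all genes tested had every KO array below every WT array. The share over all probes is not given here. The call of A_51_P463452 was kept only without WT array 4 (limma adjusted p = 0.0442) or KO array 4 (0.0386), and that of A_52_P597618 only without KO array 1 (0.0476). Where the 3 probes lie on the Acsl1 transcripts was not analysed here.

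Acsl3, a synthetase of the endoplasmic reticulum and lipid droplets, had equal means. WT arrays gave 9.30, 9.04, 9.29 and 9.10 and KO arrays 9.23, 9.13, 9.30 and 9.08. In both genotypes arrays 1 and 3 were the higher pair. The difference was 0.00 (SE 0.11, 95% interval −0.24 to 0.25, limma adjusted p = 0.982).

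Acsl4, which prefers arachidonic acid, gave 14.04, 13.60, 14.09 and 14.04 in WT and 14.26, 13.70, 14.01 and 13.98 in KO. Array 2 was the lowest of both genotypes. The difference was 0.05 (SE 0.16, 95% interval −0.31 to 0.41, limma adjusted p = 0.856). A dimmer Acsl4 probe gave −0.16 (SE 0.18, limma adjusted p = 0.547), so the 2 probes differed in sign, and neither was called.

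Among the synthetases, Acsl1 minus Acsl3 was −0.49 in KO relative to WT and Acsl1 minus Acsl4 was −0.53. Exact two-sided permutation tests gave p = 0.143 and p = 0.0857, adjusted to 0.190 and 0.171. With Acsl1 read by its dimmer probes, differences chosen after the probes had been seen, Acsl1 minus Acsl3 was −0.96 or −0.81 and Acsl1 minus Acsl4 was −0.998 or −0.85, each with an adjusted p of 0.0571 by the same exact test. Acsl3 minus Acsl4 was −0.04 (exact p = 0.771).

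**Figure D2:**
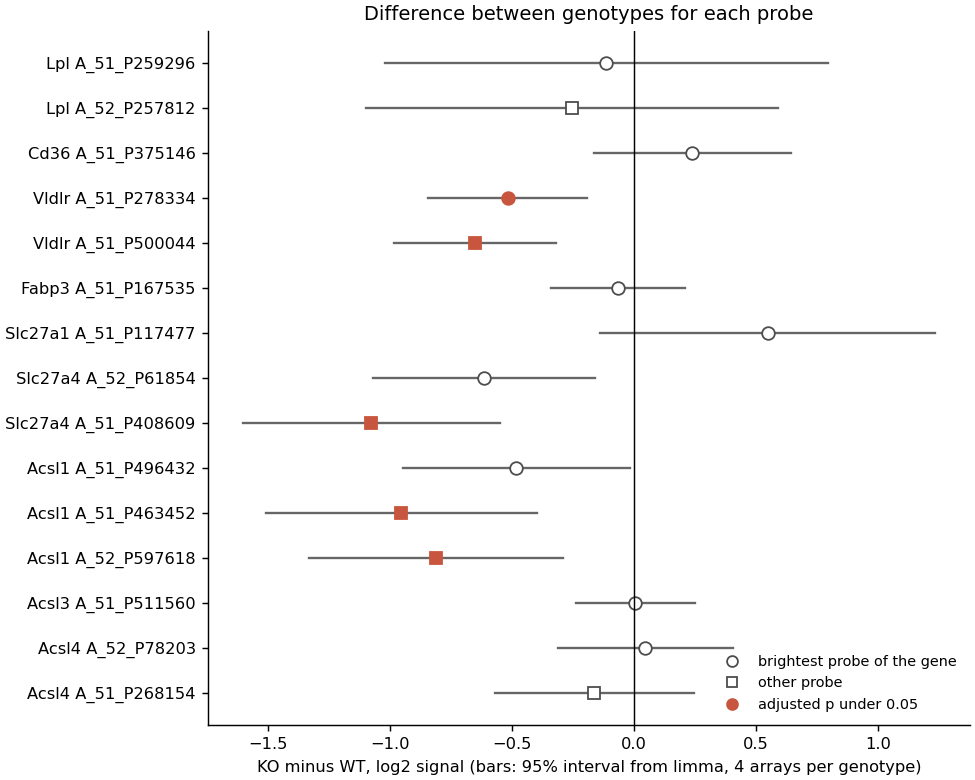
KO minus WT difference in log2 signal for each of the 15 probes, with bars for the 95% interval from limma (4 arrays per genotype). Circles are the brightest probe of a gene and squares its other probes, and the 5 filled symbols, all to the left of 0, have an adjusted p under 0.05 over all probes.

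By probe, 5 of 15 were called and all 5 were lower in KO, belonging to Vldlr, Slc27a4 and Acsl1. Over all 20838 probes tested, 8% were called lower and 6.8% higher. None of the 15 was called without WT array 2, WT array 3 or KO array 3, and between 1 and 4 were without each of the others. Several of the 15 probes read the same transcript and are not independent of each other. For Slc27a4 and Acsl1 it was the dimmer probes that were called, at larger differences than the brightest probe (for Slc27a4 not with normexp), so a count by brightest probe and a count by all probes give different pictures of these 2 genes. Over the 36 pairs of members, no correlation of signal across the 8 arrays passed after adjustment, the smallest adjusted permutation p being 0.256 for Pearson's r and 0.236 for Spearman's rho.

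The genes whose signal was most like that of Vldlr over the 8 arrays were Adal (r = 0.988), Ndufaf1 (r = 0.976) and Timp4 (r = 0.974), of 14136 others. For Slc27a4 they were Kptn (r = 0.988), Krt10 (r = 0.985) and Gpha2 (r = 0.981). These are the top of a ranking over all genes on 8 points that share a split into 2 genotypes, and are given as a description.

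Around the members, 65 further genes of the pathway were tested, with 7 called higher and 4 called lower. Over all genes tested 7.53% were called higher and 8.96% lower. They were grouped as lipase partners, lipoprotein receptors, transport and binding proteins, acyl-CoA synthetases, acyl-CoA thioesterases and regulators. Like the members, these lists were drawn up with earlier results of these data known. Among those called, the lowest was a receptor, Lrp8, and the highest a synthetase, Acsbg1.

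**Figure D3:**
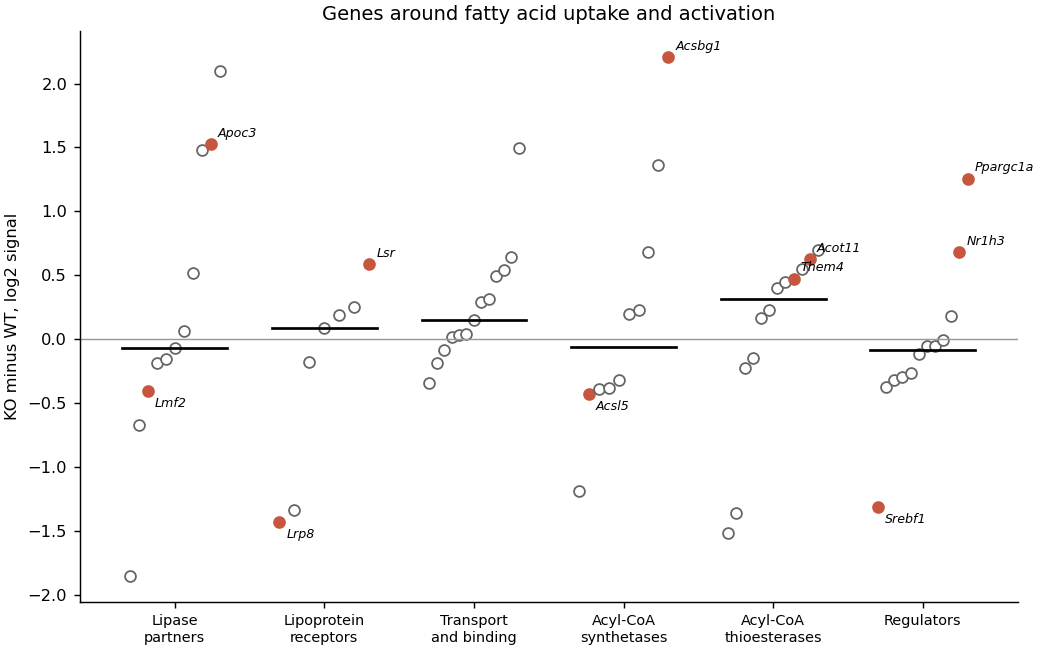
KO minus WT difference in log2 signal of 65 genes in 6 groups around the members, 1 point per gene and a black line for the group median. The 11 filled and named points have a limma adjusted p under 0.05, and they lie on both sides of 0.

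Partners of lipoprotein lipase and related lipases, 11 of them tested, had 1 gene called in each direction and a median difference of −0.07. Apoc3, an apolipoprotein that inhibits the lipase, rose by 1.53 in KO (limma adjusted p = 0.0299), from 3.20, 3.59, 4.33 and 5.09 in WT to 5.56, 5.31, 5.72 and 5.72 in KO. Lmf2, a relative of the lipase maturation factor, fell by 0.41 (limma adjusted p = 0.04999, just under the threshold). Apoc3 kept its call only without WT array 1 or WT array 4, its adjusted p reaching 0.0830, and Lmf2 only without WT array 1, reaching 0.117. Apoc3 was well above background on 3 WT arrays and all 4 KO arrays, was not tested where all 8 arrays had to pass, and differed by 0.52 with normexp on the median signals. Gpihbp1, which holds the lipase at the capillary wall, had a difference of −0.07 (limma adjusted p = 0.761).

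Angptl4, a secreted inhibitor of lipoprotein lipase, and Gpihbp1 are named here after their values were seen. Angptl4 gave 16.66, 12.74, 15.22 and 15.18 in WT and 17.54, 17.25, 17.37 and 16.04 in KO. KO array 4 was below WT array 1 and the other KO arrays were above all of WT. Its difference of 2.10 was not called (SE 0.74, limma adjusted p = 0.0820), and it was called without WT array 1 (2.67, limma adjusted p = 0.0300).

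Of 7 other lipoprotein receptors, 1 was called lower and 1 higher (2 lower with the replicate block). Lrp8, the ApoE receptor 2 and closest relative of Vldlr, fell by 1.43 (SE 0.23, limma adjusted p = 0.0113) and kept its call without any single array, at −0.93 with normexp. Its signals were 8.01, 8.44, 7.72 and 7.49 in WT and 6.35, 6.90, 6.18 and 6.51 in KO. Lsr, the lipolysis-stimulated lipoprotein receptor, which is also a protein of tricellular junctions, rose by 0.59 (limma adjusted p = 0.0430), a call kept only without WT array 1 and with adjusted p up to 0.115. With scaling to the 75th percentile Lsr was not called (0.45, limma adjusted p = 0.0655).

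The median difference of the 7 receptors was 0.090. Lrp2 was not well above background on KO arrays and was not called in the fit without a block (limma adjusted p = 0.0996). Its KO array was the lower one in 4 of 4 same-numbered pairs, and its result with the replicate block is not given here.

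Other fatty acid transport and binding genes had no call among the 13 tested, with 5 passing at an unadjusted limma p under 0.05 and 4 by the methods' t-test. The 5 are 38.5% of the list, against 36.3% of all genes tested. The nearest were Slc27a3, another member of the transport protein family (0.54, limma adjusted p = 0.0549), and Got2, the mitochondrial aspartate aminotransferase also described as a fatty acid binding protein of the plasma membrane (−0.34, limma adjusted p = 0.0566). Slc27a3 was called without KO array 4 (0.38, limma adjusted p = 0.0469) and with scaling to the 75th percentile (0.0477), as was Got2 with that scaling (0.0454) and with normexp (0.0434). On average 10 of these genes were higher in KO and 3 lower, with a median of 0.15. Of all 14137 genes tested, 6731 were higher on average and 7406 lower.

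Among 10 other acyl-CoA synthetases, 1 was called in each direction. Acsbg1, the bubblegum synthetase known from brain, testis and adrenal gland, gave 5.35, 5.41, 5.74 and 4.95 in WT and 7.70, 8.13, 8.17 and 6.27 in KO, a rise of 2.21 (SE 0.41, limma adjusted p = 0.0153) that was called without any single array and was 1.29 with normexp. Acsl5, the intestinal and mitochondrial member of the Acsl family, fell by 0.43 (SE 0.11, limma adjusted p = 0.0387), from 10.20, 10.67, 10.48 and 10.37 to 9.99, 9.98, 10.004 and 10.04. Blocking on replicate number ended the Acsl5 call (limma adjusted p = 0.0541), and it was kept only without WT array 1 (adjusted p up to 0.0980). That block also ended the Lmf2 call (limma adjusted p = 0.0562). With it, 1 lipase partner and 1 synthetase were called lower, other than Lmf2 and Acsl5. Over the 10 alternative settings, Lmf2 lost its call in 7 and Acsl5 in 3.

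Acyl-CoA thioesterases, which undo activation by splitting acyl-CoA, had 2 of 12 tested called, both higher, and a median of 0.32. With the replicate block 3 were called higher and 1 lower. Of all genes tested, 7.53% were called higher in the fit without a block, and the median was −0.02. Acot11, the thioesterase also called THEM1, rose by 0.63 (SE 0.12, limma adjusted p = 0.0167) and lost its call without KO array 3 alone (adjusted p = 0.0542). Them4 rose by 0.47 (SE 0.13, limma adjusted p = 0.0449), a call kept only without KO array 1 and with adjusted p up to 0.112. On average 8 of the 12 were higher in KO, as were 6731 of all 14137 genes tested.

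Of 12 nuclear receptors and cofactors known to act on genes of this route, 2 were called higher and 1 lower. Srebf1, which encodes the SREBP-1 factors, fell by 1.31 (SE 0.19, limma adjusted p = 0.00880) and kept its call without any single array. Its WT signals were 15.39, 16.31, 15.85 and 15.62 and its KO signals 14.47, 14.66, 14.32 and 14.47. Nr1h3, which encodes LXR-alpha, rose by 0.68 (limma adjusted p = 0.0251) and Ppargc1a, which encodes the coactivator PGC-1alpha, rose by 1.26 (limma adjusted p = 0.0453). Nr1h3 lost its call without any of 5 arrays (WT arrays 2 and 3 and KO arrays 1, 2 and 3, adjusted p up to 0.0750), and Ppargc1a without any array except WT array 4 (up to 0.109). Pparg, named after its value was seen, had a difference of −0.05 (limma adjusted p = 0.754).

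Because Lpl, Cd36, Slc27a1, Fabp3 and Acsl1 are also expressed by fat, muscle or endothelium, markers of those cells were read on the same arrays. Adipocyte markers were higher in KO in 8 of 9, with 2 called higher (Cfd by 0.68 and Plin1 by 0.71) and a median of 0.59. Among all 14137 genes tested, 6731 had a higher mean in KO and 7.53% were called higher. The Cfd call was lost without WT array 2 or 3 or KO array 1, 2 or 3 (limma adjusted p up to 0.0774) and with scaling to the 75th percentile (0.44, adjusted p = 0.0537), and the Plin1 call without any array except WT array 4 (up to 0.106). The summed signal of the adipocyte markers had a log2 of 17.61 to 18.11 in WT and 18.10 to 18.70 in KO. Brown adipocyte markers had 1 of 6 called (Ppargc1a) and a median of 1.39, with summed log2 signals of 10.20 to 13.28 in WT and 12.48 to 14.15 in KO. Ucp1, the defining gene of brown fat, gave 3.02, 1.74, 11.002 and 11.09 in WT and 8.9997, 12.85, 11.43 and 5.80 in KO, so it differed between animals of 1 genotype as much as between genotypes. Ucp1 was well above background on only 2 of the 4 WT arrays, so the order of its lowest WT values carries little meaning. On KO array 4 both Ucp1 and Slc27a1 were the lowest of their genotype, and on WT array 2 both were the lowest of theirs. The other WT arrays did not keep a common order. WT array 1 had a Ucp1 of 3.02 with an Slc27a1 of 11.56, and WT array 4 had 11.09 with 11.24. The part of adipocyte or brown adipocyte RNA in the Slc27a1, Cd36 or Lpl values was not tested.

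**Figure D4:**
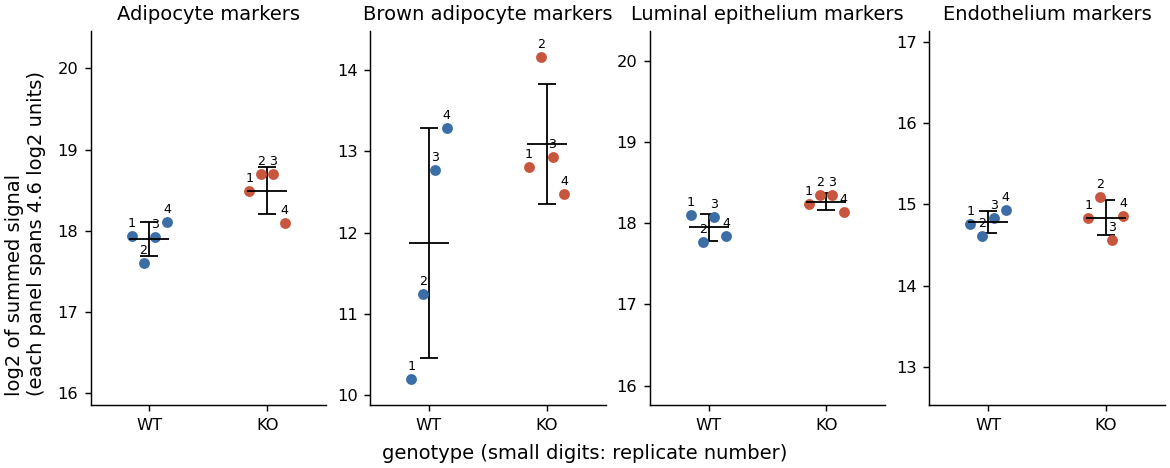
Log2 of the summed signal of 4 marker lists on each array, WT in blue and KO in red, with digits giving the replicate number and bars the mean ± SD (n = 4 per genotype). Adipocyte and luminal markers are mostly higher on KO arrays, brown adipocyte markers spread widely within WT, and endothelial markers overlap.

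Endothelial markers had 0 of 11 called (2 at an unadjusted limma p under 0.05, 1 by the methods' t-test), with summed log2 signals of 14.61 to 14.94 in WT and 14.57 to 15.10 in KO. Macrophage markers had 0 of 9 called and 0 unadjusted by either test, with 13.73 to 14.14 in WT and 13.51 to 14.29 in KO. Skeletal muscle markers had higher means in KO in 5 of 7 and lower means in 2, with a median of 0.48. The 1 called was Tnnt3, lower by 1.28 (0 called with the replicate block). The sum of this list ranged from 11.10 to 11.46 in WT and from 10.76 to 13.07 in KO, highest on KO array 3.

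Markers of the luminal epithelium, which includes the cells that take up fatty acids for milk, were called higher in 5 of 10 (Cldn4, Cldn3, Krt18, Epcam and Foxa1). Over all genes tested 7.53% were called higher. The median of the list was 0.50, with summed log2 signals of 17.77 to 18.10 in WT and 18.13 to 18.35 in KO. Means were higher in KO for 8 markers and lower for 2, Elf5 (−0.35, limma adjusted p = 0.107) and Prlr (−0.20, limma adjusted p = 0.473). The count called higher was 3 with the replicate block, 2 with no filter on dim probes, 1 with the methods' t-test and 1 to 5 when single arrays were left out (1 without KO array 1, 2 or 3, 2 without WT array 4), and 1 marker was called lower with scaling to the 75th percentile or without KO array 2. Basal epithelial markers had 1 of 9 called, Krt17, lower by 1.22, with sums of 16.61 to 17.21 in WT and 16.47 to 17.06 in KO. Milk protein genes had 0 of 8 called (0 unadjusted in limma, 1 by the methods' t-test, and 1 called lower with the replicate block), with sums of 20.51 to 20.64 in WT and 20.53 to 20.75 in KO. The milk protein genes stood at percentiles 99.14 (Lalba) to 99.99 (Wap) of all probes, where quantile normalization assigns values from few ranks. Every sum of a list adds linear signals, so its brightest genes weigh most. Vldlr, Slc27a4 and Acsl1 had lower means in KO, as did Elf5 and Prlr. The part of cell composition in the Vldlr, Slc27a4 and Acsl1 values was not tested.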

How the data were processed

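RNA of No. 4 mammary glands from 4 WT and 4 KO mice at lactation day 1 was hybridized to 8 Agilent arrays of 1 colour (Cy3). For every array the authors deposited scanner output, in which processed intensities had been background-subtracted within the array by Agilent Feature Extraction 10.7, as the submitters' processing notes name it, and carried no scaling between arrays. A further table the authors deposited holds log2 values after quantile normalization in GeneSpring, and it served as an alternative. Its columns have a median of 6.32 and follow the quantile-normalized log2 values of the same array almost exactly. Scale and direction are therefore known, and this alternative differs little from the main values.

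Processed intensities were log2-transformed and quantile-normalized with limma 3.58.1 in R 4.3.3, as in the methods of the study. Spots marked as outliers (64 to 100 per array) and control spots were left out and the spots of a probe averaged, giving 41174 probes. Probes took gene symbols from their accession through the RefSeq table of GRCm38.p6 (27479 matched). Probes well above background on all 4 arrays of a genotype were kept, and the brightest probe stood for a gene, and limma with Benjamini-Hochberg adjustment was run on the resulting 14137 genes. A fit over 20838 probes gave the values by probe. The number of arrays limits precision. Scripts were tested on simulated data with 200 changed genes.

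Groups and replicate numbers came from the sample labels. Deviations from the genotype means had correlations of 0.22, 0.16, 0.30 and 0.28 across genotypes for arrays that share a number (mean −0.079 otherwise). The latter mean is largely fixed by the former, since deviations cancel within each genotype. The shared numbers were taken as pairs in an alternative fit that blocks on them. The main fit had no block, so its SEs, intervals and calls do not use the pairs. A blocked value or count is printed beside most results whose call it alters. Arrays in the same slide position correlated at a mean of −0.24. A gene of the receptor list is not reported here and was taken out of the list's counts. The members and gene lists were chosen with earlier results of these data known. Genes named are all members, in each pathway list up to 4 called genes or, with none called, the 2 of smallest p, marker genes where called, and the 3 genes most correlated with each of the 2 members of smallest p. Alternatives were other scaling, background, filter, probe, test and block settings, the table of log2 values, and leaving out each array. Motifs were searched in 250 bases before each RefSeq gene start.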

Additional observations from a re-analysis of the deposited data

Results flagged for a closer look

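The lowest WT value of Acsl4 stood apart from its group. On probe A_52_P78203, WT array 2 had a log2 signal of 13.6, against 14.04 to 14.09 on the other 3 WT arrays. Chance sets apart about 1 in 20 groups of this size, and 30 groups were looked at (15 probes in each genotype). KO array 2 was also the lowest of its genotype for this probe.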

How the results depend on the processing

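The sign of Cd36, Vldlr, Fabp3, Slc27a1, Slc27a4 and Acsl1 was the same under every alternative computed, and no member was called higher under any of them. Of the 9 members, 1 was called, against 0 with no filter on dim probes, with the methods' t-test or with slide position as a block, and 2 with the mean of a gene's probes or with the replicate block (Vldlr and Slc27a4 in both). The Vldlr difference ranged from −0.59 to −0.47 over these alternatives, with a limma adjusted p of 0.0593 without the filter and 0.117 with the slide position block. Slc27a4 had a limma adjusted p of 0.0267 with the mean of its probes. Of the 15 member probes, 5 were called, against 2 with no filter and 0 with the t-test or the slide position block. Of the 65 pathway genes, 11 were called, against 6 with no filter, 6 with the t-test, 14 with the replicate block and 0 with the slide position block. Over all genes, 2331 were called, against 1389 with the t-test (4765 without adjustment) and 137 with the slide position block. The count at 2-fold or more was 618, against 301 with normexp on the median signals, 321 with the t-test and 126 with the slide position block. Acsl4 was −0.12 with scaling to the 75th percentile and −0.059 with the mean of its probes, Acsl3 was −0.047 with normexp, and Acsl3 minus Acsl4 was 0.12 and 0.063 under the first 2 of these. The cause was not tested for any of these. Scaling to the 75th percentile also moved Cd36 to 0.05 and Lpl to −0.29. With normexp, Apoc3, Lrp8, Acsbg1 and the dimmer Slc27a4 probe kept their calls at differences of 0.52, −0.93, 1.29 and −0.52. The exact tests between related members can hardly pass in this design and say nothing of stability. Among members and named pathway genes other than Lrp2, the replicate block changed only the calls of Slc27a4, Lmf2 and Acsl5. With that block 2 lipoprotein receptors were called lower, against 1 without it.

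Leaving out each array in turn gave 519 to 3076 genes called, 277 to 955 at 2-fold or more, 0 to 1 members, 0 to 4 member probes and 3 to 14 pathway genes. Lpl ranged from −0.34 to 0.18, Acsl3 from −0.043 to 0.045, Acsl4 from −0.069 to 0.14 and Acsl3 minus Acsl4 from −0.12 to 0.035. Normexp on the median signals and the dimmer Acsl1 probes were chosen after seeing the data. Slide as a block was not run, since each slide holds 1 genotype, nor were gene names or mean signals from the scanner output, whose columns were not in the files used here.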
